A study of Mus musculus with 8 samples.

Results

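H3K4me3 was compared between isografts of LLC-R and LLC-NR tumors through the positions of its ChIP-seq peaks. The 2 libraries were taken by their labelled antibody, and peaks on chromosomes 1 to 19 were kept. This left 5418394 of 5678337 peaks in LLC-NR against 5398636 of 5660458 in LLC-R, or 10817030 of the 59266266 peaks of the 8 libraries of the series. LLC-NR is the drug-sensitive Lewis lung carcinoma line, and LLC-R is a line derived from the same carcinoma through 5 rounds of selection in mice under VEGF-Trap, a decoy receptor that binds VEGF. Cells of either line were grown under the skin of the right flank of female C57BL/6J mice aged 6 to 8 weeks until tumors reached about 500 mm3. The tissue was fixed with formaldehyde, its nuclei were digested with micrococcal nuclease, and nucleosomes were precipitated with the antibody ab8580. A tumor piece holds host vessels, leukocytes and fibroblasts beside the carcinoma cells, and how many tumors went into a library is not given in the sources used here. With 1 library per line and mark, the differences below have no replicate check, and 95% intervals cover counting error only.

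H3K4me3 is trimethylation of lysine 4 of histone H3. It is written by SET1 and MLL methyltransferase complexes, removed by KDM5 demethylases, and bound by readers with PHD, chromo or Tudor domains. The mark lies on nucleosomes that flank active transcription start sites (TSSs), above all in CpG islands, where the CXXC domain protein CXXC1 brings SET1 complexes to unmethylated CpG. CpG-rich promoters of silent developmental genes can carry it together with H3K27me3, the Polycomb mark. Promoters were therefore grouped by CpG content into 11705 CpG-rich promoters (HCPs), 3649 intermediate promoters (ICPs) and 6064 CpG-poor promoters (LCPs), each a window around the TSS of a protein-coding gene that takes in 1 kb before it and 0.5 kb after it.

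Each peak is an interval of the length of DNA on a nucleosome, and the position of its midpoint is the whole of the measurement. The following sequences show what these positions are, with the CpG dinucleotides in capitals, read 5′ to 3′ on the strand of the gene in mm9. The first pair are peaks of LLC-NR with an LLC-R midpoint beside them, upstream of Smad3, a transducer of TGF-beta signals, and of Mapk9, the kinase JNK2. The LLC-R midpoint lay 8 bp away at Smad3 and 2 bp away at Mapk9.
Smad3 (chr9:63605832-63605978): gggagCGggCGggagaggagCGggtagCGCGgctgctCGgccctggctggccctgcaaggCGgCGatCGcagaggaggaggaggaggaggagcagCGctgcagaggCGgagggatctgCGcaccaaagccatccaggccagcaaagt
Mapk9 (chr11:49659879-49660025): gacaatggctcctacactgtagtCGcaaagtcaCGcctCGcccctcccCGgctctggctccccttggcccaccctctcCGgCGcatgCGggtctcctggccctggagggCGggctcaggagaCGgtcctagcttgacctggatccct
The next 3 are peaks of LLC-NR without an LLC-R midpoint within 73 bp, from genes that held far fewer peaks in LLC-R. The peaks of Diexf and Drd5 lie upstream of the gene outside every annotated gene, and that of Pde8b lies in an intron of the annotation, upstream of the TSS used here.
Diexf (chr1:194956631-194956777): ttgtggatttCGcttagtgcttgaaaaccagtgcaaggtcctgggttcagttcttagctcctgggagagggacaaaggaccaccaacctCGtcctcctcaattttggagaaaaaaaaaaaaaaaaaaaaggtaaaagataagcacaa
Pde8b (chr13:95993065-95993211): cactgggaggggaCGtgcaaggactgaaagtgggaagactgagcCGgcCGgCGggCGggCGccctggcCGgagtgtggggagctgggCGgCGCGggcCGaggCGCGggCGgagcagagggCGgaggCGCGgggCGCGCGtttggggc
Drd5 (chr5:38709894-38710040): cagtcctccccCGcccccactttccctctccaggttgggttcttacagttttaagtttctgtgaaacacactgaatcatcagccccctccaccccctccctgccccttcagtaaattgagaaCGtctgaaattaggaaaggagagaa
The last 3 are peaks of LLC-R without an LLC-NR midpoint within 73 bp, all upstream of genes that held more peaks in LLC-R.
Trhde (chr10:114239531-114239677): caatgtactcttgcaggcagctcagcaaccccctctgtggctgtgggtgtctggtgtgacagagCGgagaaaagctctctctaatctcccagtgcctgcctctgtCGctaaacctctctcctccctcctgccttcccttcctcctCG
Npas1 (chr7:17062302-17062448): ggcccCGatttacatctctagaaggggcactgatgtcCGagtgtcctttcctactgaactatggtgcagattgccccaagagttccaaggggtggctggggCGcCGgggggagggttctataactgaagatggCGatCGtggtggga
Grm7 (chr6:110594629-110594775): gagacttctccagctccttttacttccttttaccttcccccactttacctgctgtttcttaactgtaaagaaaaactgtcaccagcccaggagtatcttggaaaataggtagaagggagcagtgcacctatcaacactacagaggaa
The Smad3 and Mapk9 peaks hold 12 and 9 CpGs. Those of Diexf, Drd5, Trhde, Npas1 and Grm7 hold 2, 2, 3, 6 and 0, whereas the Pde8b peak holds 20, so a position in 1 line alone was not always poor in CpG. These peaks overlap no exon and lie at unlike distances from the TSS, from -104 bp at Smad3 to -873 bp at Grm7. Their CpG numbers were not compared at like distance.

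Around the TSSs of HCPs, peaks of both lines stood in a regular array whose summits were lower in LLC-R. Density was expressed relative to the mean of the library on chromosomes 1 to 19, in 10-bp bins averaged over 50 bp. The first nucleosome downstream of the TSS (plus 1) reached 3.34 (3.24 to 3.44) in LLC-NR against 2.97 (2.87 to 3.06) in LLC-R, a difference of -0.37. The second downstream summit was 2.70 in LLC-NR against 2.44 in LLC-R, and the nucleosome upstream of the TSS (minus 1) was 2.12 and 1.90. In contrast, the first trough between nucleosomes was shallower in LLC-R, at 1.28 (1.22 to 1.34) against 1.18 (1.12 to 1.24), although these intervals overlap. The ratio of plus 1 to the trough behind it was 2.84 in LLC-NR against 2.32 in LLC-R, and that of the second summit to its trough was 1.90 and 1.61. Between minus 1 and the TSS the lines differed in shape. LLC-NR went from 1.48 (1.42 to 1.55) at -115 bp to a small summit of 1.73 at -45 bp, whose interval starts at 1.66, whereas the highest LLC-R bin there was 1.45 (1.39 to 1.52) at -85 bp, within counting error of the 1.40 (1.34 to 1.47) at -105 bp. These upstream bins were picked after the profile was seen.

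**Figure D1:**
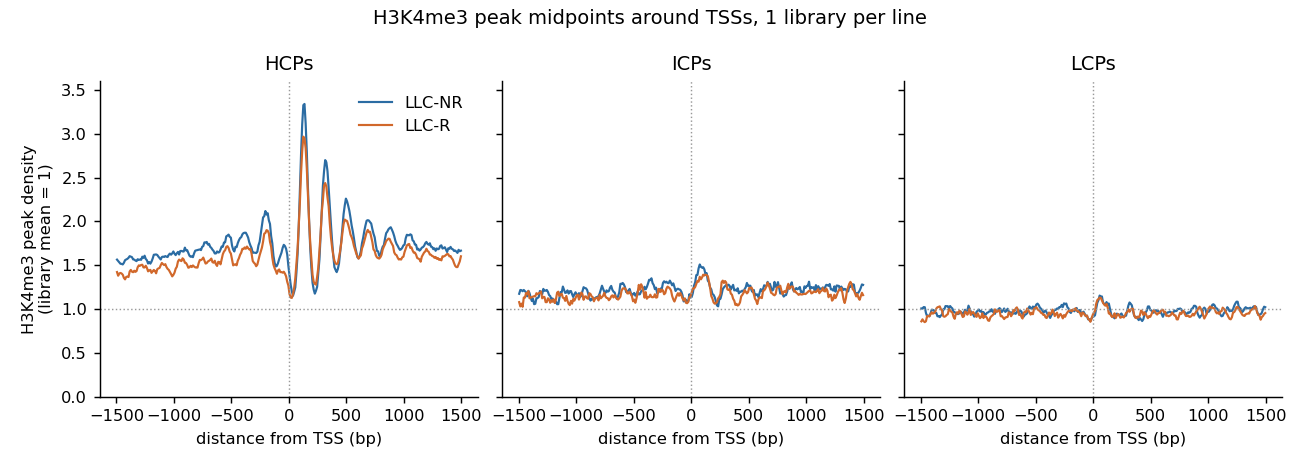
Density of H3K4me3 peak midpoints (y axis, library mean = 1) against distance from the TSS in bp for 11705 HCPs, 3649 ICPs and 6064 LCPs, with LLC-NR in blue and LLC-R in orange. In HCPs the plus 1 summit is 3.34 in LLC-NR against 2.97 in LLC-R, while ICPs and LCPs show little of the array.

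In HCPs the summits and troughs that were located in both lines differed in position by at most 1 bin. The plus 1 summit lay 135 bp downstream of the TSS in LLC-NR against 125 bp in LLC-R, and the fourth summit lay at 685 bp in both, which gives mean repeats of 183 bp and 187 bp. The lowest point at the TSS was 1.15 (1.09 to 1.21) in LLC-NR against 1.13 (1.07 to 1.19) in LLC-R, a difference within counting error. Gene by gene, 10312 HCP genes had a peak in the first 250 bp downstream in both lines, 649 in LLC-NR alone and 390 in LLC-R alone. Among those with both, the median shift was 0 bp and 58.8% lay within 20 bp of each other, against 40.8% for the first peak past 1 kb downstream of the same TSSs. The plus 1 summit of ICPs was 1.51 (1.39 to 1.63) at 75 bp in LLC-NR against 1.39 (1.28 to 1.51) at 125 bp in LLC-R, and that of LCPs was 1.15 and 1.13, both at 55 bp, with overlapping intervals in either class.

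The lower summits were part of a lower share of peaks in HCPs as a whole. HCPs took 1.22% (1.21% to 1.23%) of all LLC-NR peaks and 1.13% (1.12% to 1.14%) of all LLC-R peaks, a log2 ratio of -0.11 (-0.12 to -0.09) or a change of -7.04%. ICPs were at -0.06 (-0.10 to -0.03), and LCPs at -0.04 (-0.07 to -0.01). These directions depend on the scaling, since division by the uniquely mapped reads of the libraries puts HCPs at 0.16, ICPs at 0.20 and LCPs at 0.23, with LLC-R higher. Such scaling does not alter the contrast between classes of region. Relative to gene bodies it was -0.12 on the log2 scale for HCPs, -0.08 for ICPs and -0.05 for LCPs. This contrast depends on the region chosen, as intergenic bases within 50 kb of genes were at -0.035, near the -0.04 of LCPs. HCPs were below 0 on 19 of 19 chromosomes when each chromosome was scaled by its own peaks, with a range from -0.26 on chromosome 18 to -0.013 on chromosome 17.

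Outside these promoters the ratio was near 0 and differed in sign between classes of region. Bodies of protein-coding genes held 39.7% of LLC-NR peaks and 40.1% of LLC-R peaks, a change of 1.03%, and were below 0 on 1 of 19 chromosomes. Intergenic bases 50 kb or more from any protein-coding gene held 31.2% and 31.5%, a change of 0.946%. Intergenic bases closer to genes went the other way, with 22.9% and 22.4%, and were below 0 on 19 of 19 chromosomes. Bodies of non-coding genes were at -0.03 (-0.04 to -0.02) on the log2 scale and below 0 on 17 of 19 chromosomes, and the surroundings of other TSSs were at -0.0069 (-0.02 to 0.0044) and below 0 on 14 of 19. By distance to the nearest annotated TSS of any gene, the log2 ratio was -0.04 within 0.5 kb, -0.02 from 2 to 5 kb and -0.0010 from 5 to 10 kb. Beyond 100 kb it was 0.03. With division by reads, gene bodies and far intergenic bases were both at 0.28, against the 0.16 of HCPs.

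**Figure D2:**
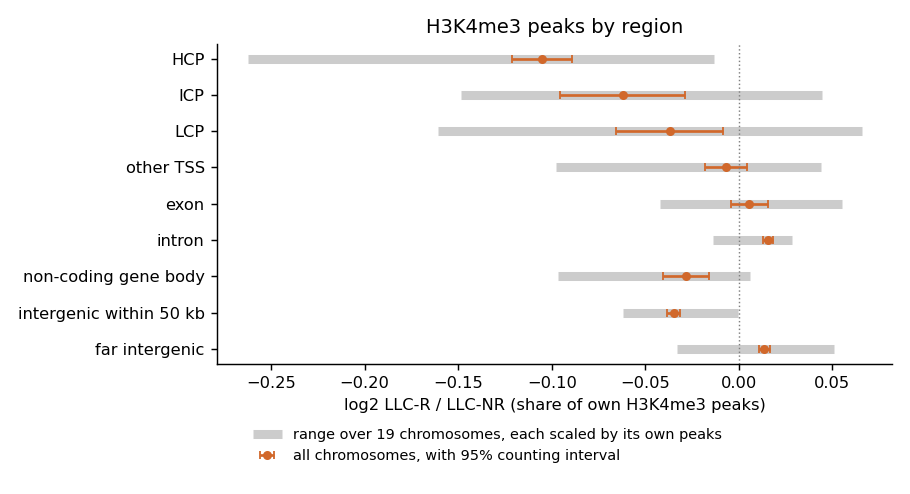
Log2 ratio of the share of own H3K4me3 peaks (x axis, LLC-R over LLC-NR) in 9 classes of region (y axis). Points are all chromosomes with the 95% counting interval, and gray bars span the 19 chromosomes, from -0.26 to -0.013 for HCPs and from -0.014 to 0.028 for introns.

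Within genes that start in an HCP, the ratio ran along the body. Only genes with 5 kb or more between the point 500 bp downstream of the TSS and the gene's end were used. When the stretch from 500 bp downstream of the TSS to the gene's end was cut into 10 equal parts, the relative density of LLC-NR was 1.31 in the first part and between 1.05 and 1.11 in the others. LLC-R was at 1.25 in the first part, 1.08 in the fifth and 1.10 in the last. The log2 ratio was accordingly -0.06 in the first part, 0.04 in the fifth and 0.05 in the last.

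Base composition moved with the ratio outside promoters, and HCPs lay apart from it. In 1-kb tiles whose distance to every TSS was 5 kb or more, the log2 ratio was -0.20 below 30% G+C, -0.04 at 35 to 40%, 0.08 at 45 to 50%, 0.13 at 50 to 55% and 0.13 at 55 to 60%. It was lower again, at 0.05, in the 2124 tiles of 60% and over. HCPs of 50 to 55% G+C were at -0.12 (3679 promoters), those of 55 to 60% at -0.10 (3916) and those of 60% and over at -0.08 (2839). Within HCPs the ratio therefore also went up with G+C, from -0.19 in the 82 HCPs of 40 to 45%, but at each G+C content it was below that of the tiles. Relative to tiles of like G+C the ratio of HCPs was -0.21, that of ICPs -0.13 and that of LCPs -0.08. The part of library preparation, digestion or depth in these trends was not tested.

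**Figure D3:**
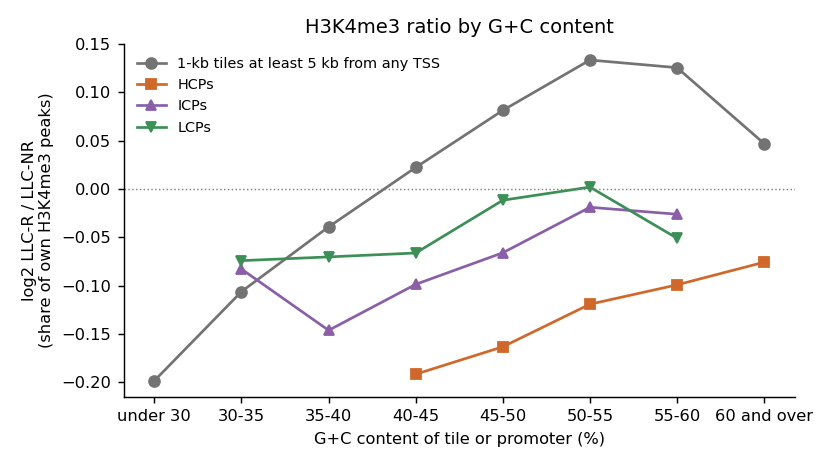
Log2 ratio of the share of own H3K4me3 peaks (y axis, LLC-R over LLC-NR) by G+C content in percent (x axis) for 1-kb tiles away from TSSs in gray and for HCPs, ICPs and LCPs in color. At 50 to 55% G+C the tiles are at 0.13 and HCPs at -0.12.

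HCPs had the highest share of positions in common, and also the most bases near a peak of the other line. Of the LLC-NR peaks in HCPs, 71.2% (70.9% to 71.6%) had an LLC-R midpoint within 73 bp, and of the LLC-R peaks 77.0% (76.7% to 77.3%) had one of LLC-NR. Since peaks are dense there, 54.8% and 59.2% of the bases of HCPs lie within 73 bp of a midpoint of the other line. Over all chromosomes the shares were 45.7% of LLC-NR and 45.8% of LLC-R peaks, against 33.2% and 33.3% of bases, and in far intergenic space they were 43.3% and 43.1%, against 30.8% and 30.6% of bases. The shares were thus 1.30 times those of bases in HCPs in both lines. They were 1.38 times over all chromosomes and 1.41 times in far intergenic space. Such a ratio has a lower ceiling where more bases lie near the other line, so it does not rank HCPs against other regions. Shared positions also lay closer together in HCPs, with a median offset of 12 bp, against 21 bp in ICPs, 24 bp in LCPs and 25 bp far from genes. HCPs held 18993 positions of LLC-NR alone and 14061 of LLC-R alone. Shared positions pair off almost 1 to 1, at 47010 and 47070, so a difference in totals falls on the line-only positions by construction.

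**Figure D4:**
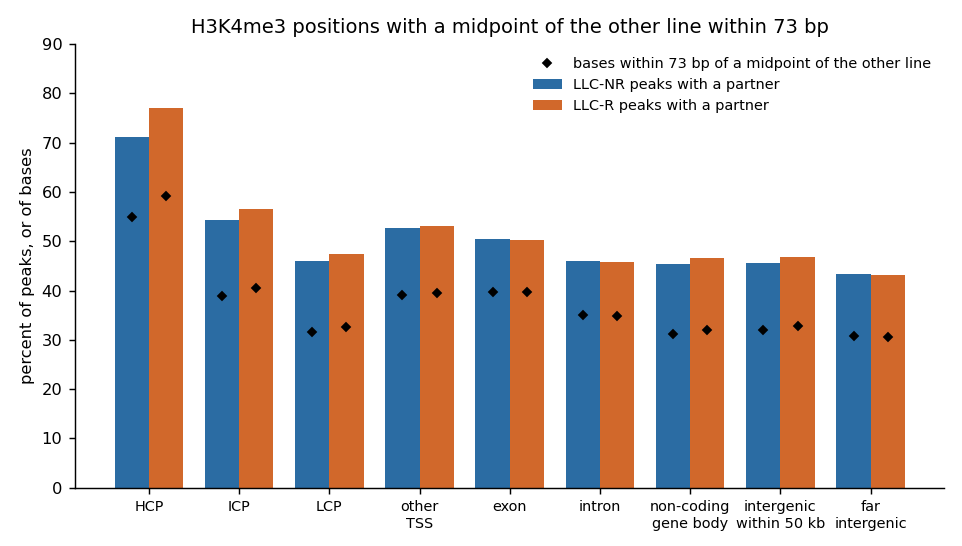
Percent of H3K4me3 peaks (y axis, bars) with a midpoint of the other line within 73 bp, by region (x axis), for LLC-NR in blue and LLC-R in orange, with diamonds for the percent of bases that lie this close to the other line. HCPs stand highest at 71.2% and 77.0%, against 43.3% and 43.1% in far intergenic space.

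The line-only positions of HCPs differed from the shared ones in sequence and in a second mark. Shared peaks of LLC-NR in HCPs had a mean G+C content of 59.5% and 9.32 CpGs per peak, and those of LLC-NR alone had 54.2% and 6.84 CpGs. In LLC-R the line-only peaks were at 55.1% and 6.81 CpGs, against 59.5% and 9.36 in the shared. H3K9ac, an acetylation of active promoters that was measured in libraries of its own, had a midpoint within 73 bp in LLC-NR at 76.6% (76.2% to 77.0%) of the shared LLC-NR positions and at 61.9% (61.2% to 62.6%) of the LLC-NR-only positions. Positions of LLC-R alone met LLC-R H3K9ac at 48.0% (47.2% to 48.9%), and shared LLC-R positions at 68.3%. The H3K9ac library of LLC-R held 0.919 times the peaks of that of LLC-NR, so these shares are compared within a line. H3K9ac peaks cover 50.1% of bases on chromosomes 1 to 19 in LLC-NR and 46.0% in LLC-R. In HCPs their density was 1.15 and 1.12 times the library mean. The 48.0% at positions of LLC-R alone is near the 46.0% of bases on all these chromosomes. The share of HCP bases within an H3K9ac peak was not computed, and the density there was above the library mean. LLC-NR H3K9ac lay at 51.9% (51.1% to 52.8%) of the positions of LLC-R alone and at 75.9% of the shared LLC-R positions.

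Neighboring peaks were farther apart in LLC-R. In HCPs the median distance between neighboring midpoints was 210 bp in LLC-NR against 222 bp in LLC-R, and 44.3% against 38.8% of neighbors were at most 200 bp apart, a difference of -5.45 percentage points. The genome-wide medians were 317 bp and 325 bp, and those of far intergenic space were 336 bp and 341 bp. Unbroken runs of 8 or more peaks with steps of at most 200 bp numbered 298 in LLC-NR against 117 in LLC-R, a log2 ratio of -1.34 (-1.66 to -1.03) per own peak. Runs of 6 or more numbered 2721 and 1547, a log2 ratio of -0.81 (-0.90 to -0.72). Of the runs of 8 or more, 53.0% in LLC-NR against 46.2% in LLC-R came within 1 kb of the TSS of an HCP gene. A run ends at any missed call, so its number answers to the total of peaks and to the depth of the library, and LLC-R had the fewer uniquely mapped reads. The part of depth in these numbers was not tested.

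The longest run of LLC-NR held 14 peaks and the longest of LLC-R held 11. In LLC-NR the run of 14 peaks crossed the TSS of AI464131, where LLC-R had 11 peaks over the same bases. The run of 13 peaks lay 1918 bp from Gcat, which acts in threonine breakdown, with 10 peaks in LLC-R, and the 3 runs of 12 peaks with the longest span were nearest to Slc7a5, a transporter of large neutral amino acids, Lsg1, a GTPase of ribosome assembly, and Uspl1, a SUMO protease, with 9, 8 and 7 peaks in LLC-R. In LLC-R the 3 longest runs held 11 peaks, nearest to Sept7, a septin of the cytoskeleton, Chek2, a checkpoint kinase whose TSS was 38895 bp away, and Fbxl12, an F-box protein. LLC-NR held 9, 9 and 7 peaks over them. The LLC-R runs of 10 peaks with the longest span lay at Eif5, a translation initiation factor, and Stk11, the kinase LKB1, with 7 and 8 peaks in LLC-NR. Since each run was picked for its length in 1 line, the lower number in the other line is part of the choice.

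Single promoters were compared by the number of peaks, which is at most 9 in an HCP. HCPs held 6.08 ± 1.34 peaks in LLC-NR against 5.63 ± 1.29 in LLC-R (SD over promoters). LLC-R held fewer at 5627 HCPs, as many at 3641 and more at 2437. A difference of 2 or more was counted as a call, and 19.2% of HCPs were lower in LLC-R by this rule while 5.80% were higher. Within 2 kb of the TSS, 44.6% of HCPs were lower by 2 or more and 10.9% higher, and of the ICPs and LCPs 30.8% were lower and 22.2% higher. Extreme numbers were nearer to the mean in the other line in both directions, as HCPs with 9 peaks in LLC-NR held 6.48 in LLC-R on average and those with 9 in LLC-R held 6.93 in LLC-NR.

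The other marks were not used to define HCPs or count H3K4me3, and HCPs were grouped by them. HCPs with 3 or fewer LLC-NR peaks of H3K27me3 had an H3K4me3 log2 ratio of -0.15 (-0.18 to -0.12, 2678 promoters), and those with 7 or more had -0.08 (-0.12 to -0.04, 1453 promoters). With the LLC-R library of H3K27me3 in its place the values were -0.16 (-0.23 to -0.10) and -0.08 (-0.11 to -0.05), and the intervals of the 2 groups overlapped with either library. Mean G+C was 55.2% and 57.7% in the LLC-NR groups. The share of HCPs higher by 2 or more in LLC-R was 3.10% in the first of these LLC-NR groups and 9.22% in the second, against 5.80% of all HCPs, and the shares lower by 2 or more were 22.3% and 18.9%, against 19.2%. Grouped by H3K9ac of LLC-NR, HCPs with 4 or fewer peaks of it were at -0.0085 (-0.06 to 0.04) and those with 7 or more at -0.12 (-0.15 to -0.10). With H3K9ac of LLC-R the contrast was smaller, at -0.08 (-0.11 to -0.04) and -0.12 (-0.16 to -0.08), and the intervals overlapped. Mean G+C also differed, at 59.0% and 55.5% in the H3K9ac groups of LLC-NR. By H3K36me3 of LLC-NR from 0.5 to 3 kb downstream, a mark of transcribed bodies, the groups with 5 or fewer and with 10 or more peaks were at -0.08 and -0.12 with overlapping intervals. By H3K36me3 of LLC-R the order was the other way, at -0.15 (-0.34 to 0.05, 194 promoters) and -0.11 (-0.12 to -0.09, 7956 promoters).

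The plus 1 summit was read in the same groups. It was 3.51 in LLC-NR against 3.14 in LLC-R at HCPs with 3 or fewer LLC-NR peaks of H3K27me3, and 2.70 and 2.51 at those with 7 or more. At HCPs with 7 or more LLC-NR peaks of H3K9ac it was 3.68 and 3.26, and at those with 4 or fewer it was 1.99 and 1.86. The summit was lower in LLC-R in each of these groups. In the last group its log2 ratio was -0.10, although the ratio over the whole promoter was -0.0085 there. Counting intervals were not computed for these summits, so the smaller differences may lie within counting error.

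The same contrast in the other libraries gave HCP log2 ratios per own peak of -0.04 (-0.05 to -0.02) for H3K9ac, -0.07 (-0.09 to -0.05) for H3K27me3 and 0.28 (0.26 to 0.30) for H3K36me3. Their libraries of LLC-R held 0.919, 1.25 and 1.35 times the peaks of LLC-NR, against 0.996 for H3K4me3, so that H3K4me3 was the pair most alike in number of peaks.

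The HCP genes with the largest differences were picked by that difference, and their values are a description. Within 2 kb of its TSS, Diexf, a nucleolar factor of digestive organ growth, held 20 peaks in LLC-NR against 9 in LLC-R. Pde8b, a cyclic AMP phosphodiesterase, held 16 and 6, and Drd5, a dopamine receptor, held 12 and 3. Bicc1, an RNA-binding protein, held 17 and 8, and Ppp3cc, a catalytic subunit of calcineurin, 19 and 10. Akap8, an anchoring protein of protein kinase A, held 21 and 13, Mccc1, an enzyme of leucine breakdown, 20 and 12, and Ercc5, an endonuclease of nucleotide excision repair, 19 and 11. The lowest difference was -11 at Diexf, 5 HCPs were at -9 or below, and the last gene named stands among 12 HCPs at -8, with 46 at -7.

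The peaks missing from LLC-R at these genes lay on both sides of the TSS. Of the 20 Diexf peaks of LLC-NR, 8 had an LLC-R partner within 73 bp, and LLC-R added 1 of its own. At Drd5, LLC-NR had midpoints at -1753, -1337, -1018, -781, -416, -198, 75, 260, 500, 1067, 1226 and 1744 bp from the TSS, and LLC-R at -1404, -150 and 218 bp. The 3 LLC-R positions all had an LLC-NR midpoint within 73 bp, while the LLC-NR midpoint nearest to the TSS, at 75 bp, had none of LLC-R within 73 bp. The LLC-R libraries of H3K27me3, H3K36me3 and H3K9ac held 18, 14 and 13 peaks in the same window. From 10 to 100 kb on either side, Drd5 had 453 H3K4me3 peaks in LLC-NR against 463 in LLC-R. Over the 8 genes this flanking log2 ratio ran from -0.25 at Pde8b to 0.11 at Bicc1, and at Ercc5 it was also -0.25.

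At the other end stand the HCP genes with the most additional peaks in LLC-R. Trhde, which degrades thyrotropin-releasing hormone, held 11 peaks in LLC-NR against 18 in LLC-R. Npas1 and Tshz2, both transcription factors, held 8 and 15. Galr1, a galanin receptor, Grm7, a metabotropic glutamate receptor, Lrfn2, a synaptic adhesion protein, and the membrane protein Tmem98 each held 7 and 14, and 4930452B06Rik held 6 and 13. These 8 are among the 10 HCPs at a difference of 7, the highest reached, and 24 stand at 6.

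At Trhde, 7 of the 11 LLC-NR positions had a partner in LLC-R, and LLC-R had 11 positions of its own, among them the one at -241 bp whose sequence is given above. At Galr1 the match was poorer, with 2 shared positions, 5 in LLC-NR alone and 12 in LLC-R alone. In the same window the LLC-NR library of H3K27me3 held from 8 to 18 peaks at the 8 genes and that of LLC-R from 12 to 18, and the 8 genes with the largest deficit held from 9 to 18 and from 13 to 19. Their flanks from 10 to 100 kb had log2 ratios from 0.03 at Trhde to 0.22 at Tshz2, above 0 at each of the 8. Galr1 lies on chromosome 18, which held 3.23% of LLC-NR peaks and 3.72% of LLC-R peaks, a log2 ratio of 0.20. As a share of the library the HCPs of that chromosome were at -0.06, the highest of the 19, and relative to its own peaks at -0.26, the lowest.

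**Figure D5:**
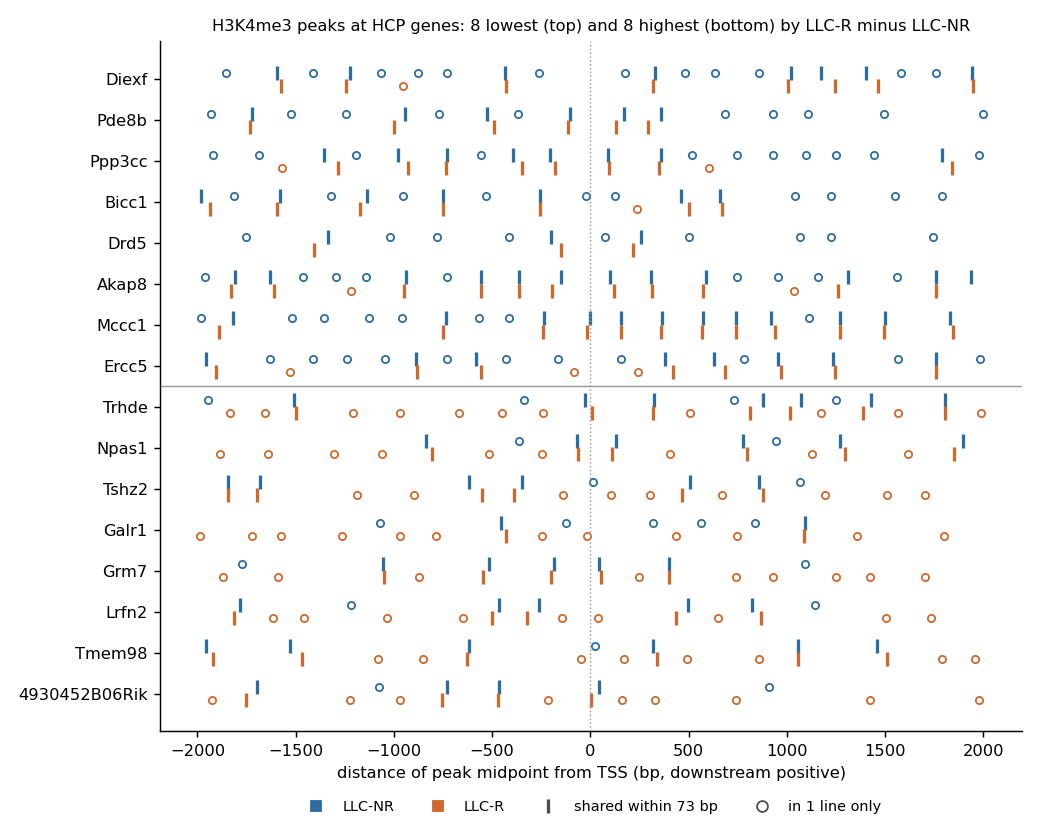
Midpoints of H3K4me3 peaks (x axis, bp from the TSS, downstream positive) at 16 HCP genes (y axis), LLC-NR in blue and LLC-R in orange, with bars for positions shared within 73 bp and open circles for positions of 1 line. Drd5 has 12 LLC-NR and 3 LLC-R midpoints, and Trhde has 11 and 18.

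Lists of genes were then read within 2 kb of the TSS, with 211 genes in 12 lists. Of their 119 HCP genes, 43 were lower by 2 or more in LLC-R and 14 higher, against 44.6% and 10.9% of all HCPs. Subunits of H3K4 methyltransferase complexes held 16.2 peaks on average in LLC-NR against 15.4 in LLC-R, with 5 of 20 lower and 2 higher. Of these 4 and 2 were among the 16 HCPs of the list. Cxxc1, the CpG-binding subunit of SET1 complexes, held 18 and 14 peaks and Wdr82, its partner subunit, 16 and 12, whereas the shared core subunit Wdr5 held 15 and 17 and Psip1, which tethers MLL1 to chromatin, 15 and 17.

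The list named for H3K4 demethylases is short, with 7 HCPs, and not all of its members act on H3K4 or on its trimethylated state. Of the 7, 5 were lower by 2 or more and 0 higher, against 44.6% and 10.9% of all HCPs. The median difference was -2 against -1. Kdm2a, which binds CpG islands, held 19 and 15 peaks and Kdm1b, a demethylase of H3K4me1 and H3K4me2, 19 and 16. Rcor1, the CoREST scaffold of KDM1A, held 17 in both lines, and Kdm5a, which removes H3K4me3, 18 and 17. Of 14 readers, 8 were lower and 2 higher, with 7 and 1 of these among 12 HCPs. Ccdc101, the Tudor subunit Sgf29 of SAGA, held 16 and 11, and Ing2, a PHD finger protein, 19 and 15, while the chromodomain remodeler Chd1 held 16 and 18 and Spin1, from an LCP, 2 and 5.

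The list of VEGF and angiopoietin signaling, which also holds PDGF, Notch and hypoxia factor genes, had 7 of 22 genes lower and 6 higher. Of its 16 HCPs, 6 were lower and 4 higher, against 44.6% and 10.9% of all HCPs. Nrp1, a coreceptor of VEGF, held 18 and 14 peaks, and Hif1a, the hypoxia factor, 18 and 15. Epas1, a second hypoxia factor, held 15 and 18, and Tek, the receptor of angiopoietins, 9 and 12. Endothelial markers had 3 lower and 3 higher of 16. Of the 12 that are ICPs or LCPs, 3 were lower and 2 higher, against 30.8% and 22.2% of that class. Mmrn2, an endothelial matrix protein, held 15 and 9 and Egfl7 15 and 12, whereas Plvap, of endothelial diaphragms, held 11 and 15 and the receptor phosphatase Ptprb 11 and 14. The summed level of the list was 189 peaks in LLC-NR against 188 in LLC-R, with 0 members without a peak.

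Leukocyte and fibroblast markers were more often lower than higher, as were promoters at large. Leukocyte markers, with 0 HCPs among 24, summed to 317 peaks in LLC-NR against 291 in LLC-R, and 12 were lower and 4 higher by 2 or more, against 30.8% and 22.2% of ICPs and LCPs. Ptprc (CD45) held 17 and 12 and Tyrobp, an adaptor of myeloid receptors, 16 and 11, while Ly6g, of neutrophils, held 10 and 14 and Laptm5 13 and 16. The list averaged 13.2 and 12.1 peaks per gene, against 8.83 and 8.59 over all LCPs and 10.9 and 10.5 over all ICPs, which make up 15 and 9 of the list. Fibroblast markers summed to 187 and 165, with 8 of 14 lower and 2 higher. Of the 10 that are ICPs or LCPs, 6 were lower and 1 higher, against 30.8% and 22.2%, and of the 4 HCPs 2 and 1, against 44.6% and 10.9%. The collagen gene Col3a1 held 17 and 12 and Thy1 14 and 9, whereas Fbln1 held 8 and 12 and Col1a1 11 and 14. In bulk tumor, fewer host cells and less of the mark per cell cannot be told apart.

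Lung epithelium markers had 4 lower and 4 higher of 18 and sums of 235 and 232. The 9 HCPs among them and the 9 other genes each had 2 lower and 2 higher. Of all HCPs 44.6% were lower and 10.9% higher, and of all ICPs and LCPs 30.8% and 22.2%. Ager, of alveolar type I cells, held 18 and 13 and Foxa2 16 and 12, while Sftpb, a surfactant protein, held 10 and 14 and Cdh1 14 and 16. Drivers of lung carcinoma had 8 of 15 lower and 0 higher, of which 7 and 0 were among 14 HCPs, near the 44.6% of all HCPs for the lower ones. Their values within 2 kb were 19 and 15 at Hras1, 16 and 12 at Egfr and 18 and 19 at Stk11. Housekeeping genes had 7 of 18 lower and 1 higher. Of the 17 HCPs of this list 6 were lower and 1 higher, against 44.6% and 10.9% of all HCPs. The examples were the transferrin receptor Tfrc at 18 and 13, the tubulin Tubb5 at 18 and 14, the RNA polymerase II subunit Polr2a at 15 and 18 and Sdha, of succinate dehydrogenase, at 15 and 16.

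Developmental transcription factors, which are Polycomb targets in many tissues, had 6 of 23 lower and 4 higher. Of the 19 HCPs among them 4 were lower and 2 higher, against 44.6% and 10.9% of all HCPs. The 4 that are ICPs or LCPs had 2 lower and 2 higher, against 30.8% and 22.2% of that class. Nkx2-2 held 16 and 12 and Nkx6-1 18 and 15, while En1 held 12 and 15 and Neurog1 11 and 14. Genes of other tissues, with 1 HCP among 20, had 5 lower and 5 higher, against 30.8% and 22.2% of ICPs and LCPs. Apoa1, of liver, held 15 and 9 and the lens crystallin Crygd 12 and 6, whereas Zp3, of the oocyte, held 7 and 12 and Cyp3a11, of liver, 9 and 12. Differences of 6 and 5 peaks thus occurred among genes of unrelated tissues too, in either direction.

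Genes with a ChIP-qPCR amplicon numbered 5, and each primer pair matched 1 site on the chromosome of its gene in mm9. Other chromosomes were not searched. Smad3 held 15 peaks within 2 kb of its TSS in LLC-NR against 19 in LLC-R, the largest difference of the 5 at the TSS. Ptk2, the focal adhesion kinase, held 18 and 17, Mapk9 15 and 14, and Mmp9, a matrix metalloproteinase, 12 and 11. Nfkb1, an NF-kappa-B subunit, held 15 and 13 at the TSS used here, but its amplicon is centered at -23664 bp from it, 83 bp from another TSS of the gene, where 15 LLC-NR and 16 LLC-R peaks stand within 2 kb. The amplicon of Mmp9 lies 6845 bp into the gene, 594 bp from another annotated TSS, with 17 and 14 peaks around it. Around the amplicons of Smad3, Mapk9 and Ptk2, all upstream of the TSS, stood 15 and 18, 16 and 13, and 17 and 16 peaks. LLC-NR peaks covered 83.2% of the bases of the Smad3 amplicon and LLC-R peaks 75.7%, and the values for Mapk9 were 92.4% and 93.8%. Ptk2 was covered at 71.8% and 84.6%, Nfkb1 at 41.7% and 83.3%, and Mmp9 at 100% and 33.3%. Coverage by peak intervals records position, and the files hold no height that could be set beside an enrichment.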

How the data were processed

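H3K4me3 ChIP-seq of LLC-NR and LLC-R isografts was analysed with 1 library per line. Per the study's methods, the authors aligned reads against mm9 using Bowtie (0.12.7, also in the submitters' processing notes), retained those that mapped uniquely and called peaks per library with GeneTrack, whose version and settings are not given in the sources used here. The deposited values are chromosome, start and end of nucleosome-sized peaks, per the file headers and labels in no other unit, with no height, strand, count or input. Midpoints were counted as a share of the library's own peaks on chromosomes 1 to 19. TSSs (the one shared by most transcripts) came from GENCODE vM1 and sequence from NCBIM37, the assembly of mm9. HCPs hold a 500-bp interval with at least 55% G+C and CpG O/E of at least 0.6, and LCPs none with O/E of at least 0.4. Intervals are exact 95% binomial ones or, for profile densities, exact Poisson ones. No test was run. Named genes are the 8 HCP genes with the lowest and the 8 with the highest difference within 2 kb of the TSS, the genes nearest to the 5 longest runs per library, 2 per direction of each list, and the 5 ChIP-qPCR genes. The members and lists were chosen with earlier results of these data known. Of 222 list genes, 11 were not measured, mostly on chromosome X or Y, and 1 gene that the rule names is not reported here. Functions were tested on simulated peaks. Software was SciPy 1.17.1 with NumPy 2.4.6, pandas 2.3.3, Matplotlib 3.10.9 and Python 3.11.15.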

Additional observations from a re-analysis of the deposited data

Results flagged for a closer look

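Chromosome Y lies outside the chromosomes compared in the report. H3K4me3 peaks on it numbered 76 in LLC-NR and 1497 in LLC-R, a 19.8-fold (15.7 to 25.2) higher share per peak on chromosomes 1 to 19. In the other marks the folds were 6.61 for H3K9ac, 26.2 for H3K27me3 and 49.3 for H3K36me3. On chromosome X the H3K4me3 fold was 1.01. The hosts of both lines were female mice, and the difference has no replicate check.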

How the results depend on the processing

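Over the 13 results and their alternatives, 31 of 50 values stayed within the counting interval of the value reported, 16 moved out of it and 3 reversed. Some that stayed had intervals of their own that crossed 0. The plus 1 difference in HCPs without averaging over bins was -0.38 (-0.83 to 0.070). LCPs with 500 bp on each side of the TSS were at -0.033 (-0.068 to 0.0015). Division by uniquely mapped reads reversed HCPs to 0.16, ICPs to 0.20 and LCPs to 0.23 (log2), and moved gene bodies and far intergenic bases to 0.28 each. Relative to distal tiles of like G+C, an alternative added after the data were seen, the ratios moved to -0.21, -0.13 and -0.082. Shared positions in HCPs were 54.0% of LLC-NR peaks within 36 bp and 44.1% within 20 bp, and genome-wide 29.1% and 20.8%. Close spacing in HCPs differed by -3.98 percentage points at 180 bp and -6.88 at 250 bp. HCPs lower by 3 or more peaks were 4.86% and higher 1.11%, and within 2 kb those lower and higher by 2 or more were 44.6% and 10.9%. Long runs with steps of at most 180 bp numbered 13 and 7, a log2 ratio of -0.89 (-2.45 to 0.54). Runs of 12 or more numbered 6 against 0 and gave no ratio. The causes of these moves were not tested, beyond the wider or narrower limits themselves. No paired analysis was possible because each line has 1 library. The files hold 1 library per line, no depth per peak and no input, so differences between tumors, digestion and sequencing depth cannot be told apart from the line, and the number of peaks saturates in dense promoters.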
